A study of Rattus norvegicus with 18 samples.

Results

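The genes described here are 9 core members of transforming growth factor beta (TGF-β) signalling in rat: the ligands Tgfb1, Tgfb2 and Tgfb3, the latent TGF-β binding protein Ltbp1, the receptors Tgfbr1, Tgfbr2 and Tgfbr3, and the signal transducers Smad2 and Smad3. They were chosen by symbol as core genes of the pathway, with earlier results of these data known. All 9 were found among the 16988 genes measured, and they rest on 148 of the 223110 probe sets that the platform annotation pairs with 1 gene symbol only. The value of a gene on an array is the median of its probe sets on the log2 scale. None of their probe sets is also paired with another symbol, but Smad2 and Smad3 are close paralogs, so probes could share signal between them and their values are uncertain in that respect.

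The samples are confluent cultures of WB-F344, a stem-like epithelial line derived from rat liver, used at passages 14 to 16. PCB126 cultures received 100 nM of this dioxin-like polychlorinated biphenyl, which activates the aryl hydrocarbon receptor (AhR), for 6, 24 or 72 h, and DMSO cultures received 0.1% of the vehicle for the same times. Each of the 6 groups has 3 arrays, which the labels call independent repeats without saying if each came from its own thaw or passage, and the p-values cover only the variation among the samples at hand. All cultures are of 1 immortal line, which limits what they show of liver tissue.

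TGF-β is secreted in a latent form, bound to its propeptide and, through it, to a latent binding protein such as Ltbp1, which anchors the complex in the extracellular matrix. Released ligand binds the type II receptor Tgfbr2, which phosphorylates the type I receptor Tgfbr1, and Tgfbr1 phosphorylates Smad2 and Smad3, which enter the nucleus with Smad4 and regulate transcription. In liver the pathway is known for restraining the growth of epithelial cells and for driving matrix production in fibrosis.

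Promoter windows of the 4 genes that passed the test at any time are shown, because these are the genes whose RNA differed between treated and vehicle cultures. Each window runs 5′ to 3′ on the gene's strand, from 250 bases before to 50 bases after the start in RefSeq's annotation of GRCr8, and matches to GCGTG or its reverse complement CACGC are in capitals. GCGTG is the core of the motif that the AhR and its partner bind. The Tgfb3 window is chr6:111456897-111457196, the Ltbp1 window chr6:26177252-26177551, the Tgfbr2 window chr8:124761420-124761719 and the Tgfb2 window chr13:100792636-100792935, all on the minus strand.
Tgfb3: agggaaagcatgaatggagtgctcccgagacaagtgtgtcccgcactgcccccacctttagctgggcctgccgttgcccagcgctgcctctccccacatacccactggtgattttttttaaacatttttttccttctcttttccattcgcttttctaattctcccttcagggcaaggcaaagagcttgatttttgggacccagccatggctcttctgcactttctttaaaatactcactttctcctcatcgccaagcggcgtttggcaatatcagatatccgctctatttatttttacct
Ltbp1: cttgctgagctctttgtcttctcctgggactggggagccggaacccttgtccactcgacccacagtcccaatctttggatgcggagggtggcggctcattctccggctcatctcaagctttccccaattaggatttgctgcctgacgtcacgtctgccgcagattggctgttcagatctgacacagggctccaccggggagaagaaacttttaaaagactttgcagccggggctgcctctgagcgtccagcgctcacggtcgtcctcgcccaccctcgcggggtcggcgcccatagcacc
Tgfbr2: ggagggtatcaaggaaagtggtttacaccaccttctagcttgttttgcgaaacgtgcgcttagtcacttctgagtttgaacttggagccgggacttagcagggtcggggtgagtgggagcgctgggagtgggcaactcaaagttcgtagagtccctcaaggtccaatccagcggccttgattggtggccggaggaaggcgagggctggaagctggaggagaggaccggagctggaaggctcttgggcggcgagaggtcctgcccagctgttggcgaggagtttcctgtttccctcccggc
Tgfb2: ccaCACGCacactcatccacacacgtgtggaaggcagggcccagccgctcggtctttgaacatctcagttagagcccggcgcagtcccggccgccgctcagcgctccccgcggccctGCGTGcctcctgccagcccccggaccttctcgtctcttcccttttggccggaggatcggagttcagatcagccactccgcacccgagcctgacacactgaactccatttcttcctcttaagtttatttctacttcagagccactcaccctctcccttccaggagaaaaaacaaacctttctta
The letters of the motif occurred at -247 and -133 from the start in the Tgfb2 window and not at all in the windows of Tgfb3, Ltbp1 and Tgfbr2. Over the whole set, 6 of the 9 genes had a match in a window and 3 had none. The same search on both strands found a match in 9939 of 33469 rat promoter windows of this length, or 29.7%. This is a share of windows and not of genes, so it is not of the same kind as the count of 6 of 9. A match is a run of letters and not a measured binding site, and its absence concerns this window alone.

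The arrays had medians of 6.19 to 6.54 over genes, the SD over genes of the difference between replicates of a group ranged from 0.352 to 0.518, and the median standard error of a change was 0.183. Replicates 1 and 2 of PCB126 at 72 h stood apart, since the interquartile range of their relative log expression was 0.461 and 0.475 (0.355 in replicate 3), so results at 72 h are also given without both of them. Cyp1a1, the textbook AhR target, rose at every time, by 2.90, 5.55 and 6.22 (log2) at 6, 24 and 72 h. Of 10 markers of liver epithelial progenitors, Krt8, Gja1, Vim and Met, 4 in all, had a mean above the median gene, while the epithelial keratins Krt18 and Krt19 averaged 4.58 and 6.09, Afp 3.48 and Epcam (Tacstd1 in the annotation) 2.25. Brightness also depends on the probes, so this is only a rough guide to what the cells expressed. Alb, the defining hepatocyte product, averaged 3.47, and of 7 hepatocyte markers only Cyp2e1 lay above the median gene. None of 6 leukocyte markers did, and of 5 endothelial markers only Tek. Of 7 stellate cell and myofibroblast markers, Des and Col1a1 lay above it, and none passed the test for PCB126 against DMSO at any time.

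At each time the PCB126 and DMSO arrays were compared with limma's moderated two-sided test. The p-values were adjusted over all 16988 genes (Benjamini-Hochberg), and called means an adjusted p under 0.05. At 6 h none of the 9 genes was called, against 0.494% of all genes, although 4 had an unadjusted p under 0.05, against 8.31% of all genes. At 24 h Tgfb2 was called higher and Tgfb3 lower, 2 of 9 against 4.84% of all genes (1.70% higher and 3.14% lower). At 72 h Tgfb2 was called higher and Tgfb3, Ltbp1 and Tgfbr2 lower, 4 of 9 against 7.44% of all genes (3.30% higher and 4.14% lower). The 9 genes averaged 7.55 to 10.93 over the 18 arrays, above the array medians of 6.19 to 6.54 over genes. The shares of all genes therefore include many dimmer genes, and the share among genes of like brightness was not computed. The median change of the 9 genes was -0.10, -0.16 and 0.01 (log2) at 6, 24 and 72 h, beside -0.01, -0.02 and 0.00 over all genes. In cultures measured in bulk, fewer cells of a type and less RNA per cell cannot be told apart. With only the compared groups in the fit, or without both wide-spread arrays, Tgfb3 was the 1 gene of the 9 called at 72 h, and it was also the 1 called at 24 h with the compared groups alone.

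**Figure D1:**
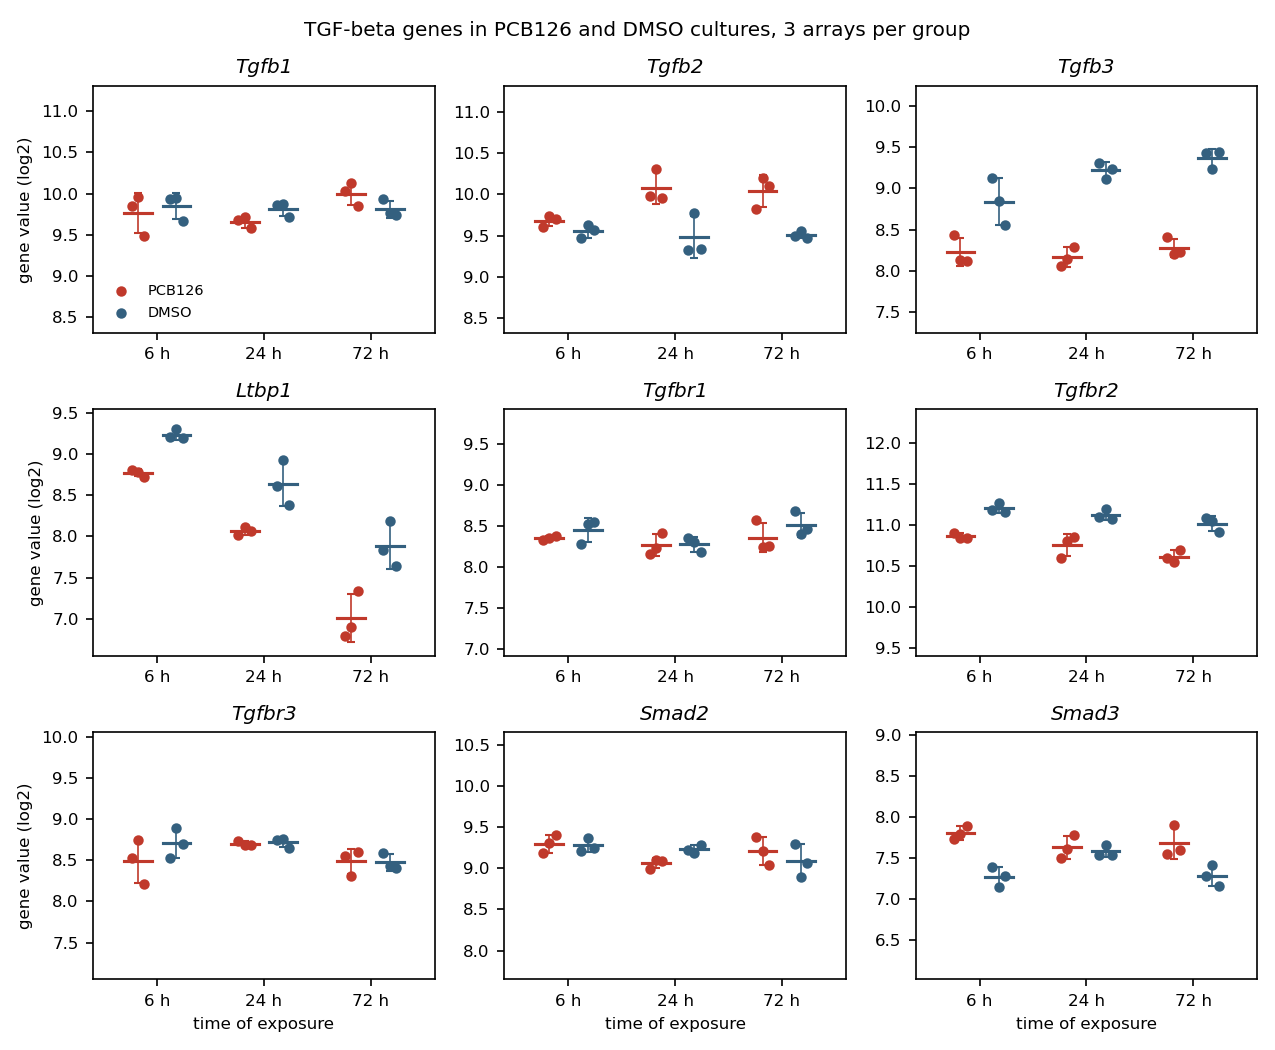
Value of each gene (log2) on each array against time of exposure, with PCB126 arrays left of DMSO arrays at each time, points for the 3 arrays of a group and bars for their mean. Tgfb3 lay at 8.05 to 8.43 on the 9 PCB126 arrays and at 8.55 to 9.44 on the 9 DMSO arrays, and Ltbp1 went down with time in both treatments.

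Among the ligands, Tgfb3 had the largest change of the 9 genes at each time. Tgfb3 encodes TGF-β3, a ligand of epithelial and mesenchymal cells that signals through the same receptors as TGF-β1. At 6 h the Tgfb3 value (log2) was 8.43, 8.13 and 8.12 on the 3 PCB126 arrays, against 9.12, 8.85 and 8.55 on the 3 DMSO arrays. At 24 h it was 8.05, 8.14 and 8.29 with PCB126, against 9.31, 9.11 and 9.23 with DMSO. At 72 h it was 8.40, 8.21 and 8.23 with PCB126, against 9.43, 9.23 and 9.44 with DMSO. The treated and vehicle arrays did not overlap at any time, and no treated array of any time reached the lowest vehicle array. The difference at 6 h was -0.61 ± 0.14 (log2, SE, n = 3 per group), which missed the threshold (limma adjusted p = 0.0860). Tgfb3 fell by 1.05 ± 0.14 at 24 h (2.08-fold lower, limma adjusted p = 0.000298) and by 1.09 ± 0.14 at 72 h (2.13-fold lower, limma adjusted p = 0.000116). Both calls held when any 1 array was left out, with adjusted p up to 0.00295 at 24 h and 0.00107 at 72 h, and at 72 h without both wide-spread arrays (-1.14, adjusted p = 0.00712).

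The 14 probe sets of Tgfb3 give a view within the transcript, although they share RNA and are not replicates. All 14 were lower with PCB126 at each of the 3 times, with changes between -1.51 and -0.72 at 24 h and between -1.41 and -0.83 at 72 h. Tested over all 223110 probe sets, 0, 10 and 11 of the 14 were called lower at 6, 24 and 72 h. Of all probe sets, 0.0238%, 1.18% and 2.36% were called lower at these times. Of the 14, 13 lay above the median probe set level of 4.03. Shares among probe sets of like brightness were not computed, here or for the other genes.

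Tgfb2 moved the other way from Tgfb3. Tgfb2 encodes TGF-β2, the ligand that depends most on the accessory receptor Tgfbr3 for binding to Tgfbr2. At 6 h the Tgfb2 value was 9.60, 9.74 and 9.70 with PCB126, against 9.47, 9.63 and 9.57 with DMSO. At 24 h it was 9.99, 10.31 and 9.96 with PCB126, against 9.33, 9.77 and 9.33 with DMSO. At 72 h it was 9.82, 10.20 and 10.10 with PCB126, against 9.49, 9.56 and 9.47 with DMSO. The groups overlapped at 6 h and did not overlap at 24 or 72 h, where every treated array was the higher. The difference at 6 h was 0.12 ± 0.14 (adjusted p = 0.894 by limma, n = 3 per group). Tgfb2 rose by 0.61 ± 0.14 at 24 h (1.52-fold, limma adjusted p = 0.0195) and by 0.53 ± 0.14 at 72 h (1.44-fold, limma adjusted p = 0.0305). The call at 24 h was lost without PCB126 replicate 2 (0.49, adjusted p = 0.0979), without DMSO replicate 1 (adjusted p = 0.105) or without DMSO replicate 3 (adjusted p = 0.0925), and the call at 72 h was lost without any 1 array of its groups except PCB126 replicate 1, with the change at 0.45 to 0.64. Without both wide-spread arrays the change at 72 h was 0.59 (adjusted p = 0.142).

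All 10 probe sets of Tgfb2 were higher with PCB126 at each time, by 0.39 to 0.70 at 24 h and by 0.22 to 0.92 at 72 h. Of these 10, 0, 1 and 1 were called higher at 6, 24 and 72 h, against 0.0596%, 0.681% and 1.57% of all probe sets.

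Tgfb1, the most studied ligand in liver fibrosis, was not called at any time. Its difference was -0.08 ± 0.13 at 6 h, -0.16 ± 0.13 at 24 h and 0.19 ± 0.13 at 72 h, and the treated and vehicle arrays overlapped at each time. The 95% intervals were -0.37 to 0.20, -0.44 to 0.12 and -0.09 to 0.47.

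Ltbp1, which holds latent TGF-β in the matrix, was lower in treated cultures and also lower at later times in both treatments. At 6 h the Ltbp1 value was 8.81, 8.79 and 8.72 with PCB126, against 9.21, 9.31 and 9.19 with DMSO. At 24 h it was 8.01, 8.11 and 8.07 with PCB126, against 8.62, 8.93 and 8.38 with DMSO. At 72 h it was 6.79, 6.90 and 7.34 with PCB126, against 7.83, 8.19 and 7.64 with DMSO. Every treated array lay below every vehicle array of its time, with the narrowest gaps at 24 and 72 h. The difference was -0.46 ± 0.17 at 6 h (limma adjusted p = 0.399) and -0.58 ± 0.17 at 24 h (limma adjusted p = 0.0618), neither of which passed. At 72 h Ltbp1 fell by 0.88 ± 0.17 (1.84-fold lower, limma adjusted p = 0.00290), a call that held when any 1 array was left out, with adjusted p up to 0.0193. Without both wide-spread arrays the change was -0.55 (adjusted p = 0.242), since replicate 3, the remaining treated array, had the highest of the 3 treated values.

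Of the 39 probe sets of Ltbp1, 39, 39 and 37 were lower with PCB126 at 6, 24 and 72 h. None was called at 6 h, 6 were called lower at 24 h and 20 at 72 h, and none was called higher. Of all probe sets, 0.0238%, 1.18% and 2.36% were called lower at 6, 24 and 72 h. The probe sets ranged from -1.39 to 0.16 at 72 h, with a median of -0.95.

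**Figure D2:**
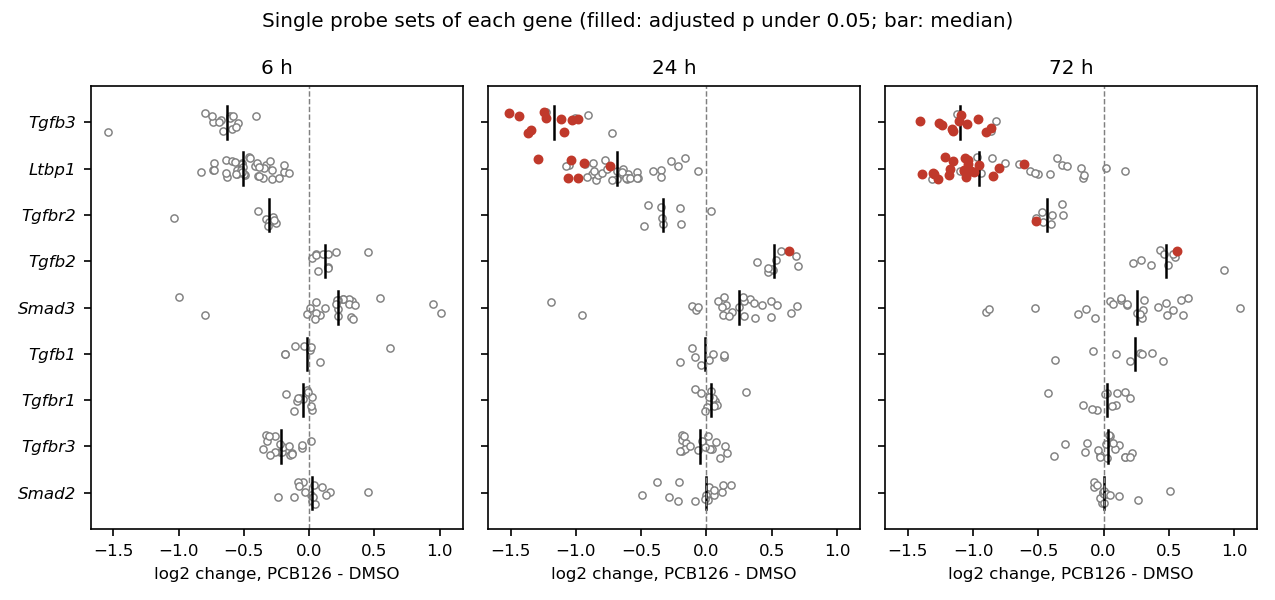
Change of each single probe set of the 9 genes (log2, PCB126 minus DMSO) at 6, 24 and 72 h, filled where the adjusted p over all probe sets was under 0.05, with a bar at each gene's median. All 14 probe sets of Tgfb3 lie below 0 and all 10 of Tgfb2 above 0 at each time, while those of Smad3 spread from -0.90 to 1.05 at 72 h.

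Tgfbr2, the type II receptor that binds ligand first, was the receptor with a call. At 6 h the Tgfbr2 value was 10.91, 10.85 and 10.84 with PCB126, against 11.19, 11.27 and 11.16 with DMSO. At 24 h it was 10.60, 10.81 and 10.85 with PCB126, against 11.09, 11.19 and 11.07 with DMSO. At 72 h it was 10.60, 10.55 and 10.70 with PCB126, against 11.08, 11.05 and 10.92 with DMSO. All treated arrays were below all vehicle arrays of the same time, and the gaps were small in log2 units. The difference was -0.34 ± 0.10 at 6 h (limma adjusted p = 0.252) and -0.37 ± 0.10 at 24 h (limma adjusted p = 0.0521), neither of which passed. At 72 h Tgfbr2 fell by 0.40 ± 0.10 (1.32-fold lower, limma adjusted p = 0.0239). This call was lost without PCB126 replicate 1 (-0.39, adjusted p = 0.0541), PCB126 replicate 2 (-0.36, adjusted p = 0.0710), DMSO replicate 1 (-0.37, adjusted p = 0.0951) or DMSO replicate 2 (-0.38, adjusted p = 0.0784), and without both wide-spread arrays (-0.31, adjusted p = 0.352). Its 8 probe sets were lower in 8, 7 and 8 cases at the 3 times, of which 0, 0 and 1 were called. Beside these, 0.0238%, 1.18% and 2.36% of all probe sets were called lower.

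Tgfbr1, the kinase that phosphorylates Smad2 and Smad3, was not called, with differences of -0.10, -0.01 and -0.15 (each ± 0.13, SE) at 6, 24 and 72 h. Tgfbr3, the proteoglycan betaglycan that presents ligand, was not called either, with differences of -0.21, -0.02 and 0.01 (each ± 0.14). The treated and vehicle arrays of both receptors overlapped at each time. Their 95% intervals at 72 h ran from -0.42 to 0.11 for Tgfbr1 and from -0.28 to 0.31 for Tgfbr3.

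Neither SMAD was called. The Smad3 value at 6 h was 7.73, 7.80 and 7.89 with PCB126, against 7.39, 7.15 and 7.29 with DMSO, with no overlap. At 24 h it was 7.50, 7.62 and 7.78 with PCB126, against 7.54, 7.66 and 7.54 with DMSO, and the groups overlapped. At 72 h it was 7.55, 7.91 and 7.60 with PCB126, against 7.29, 7.42 and 7.16 with DMSO, again with no overlap. The differences were 0.53 ± 0.12 (limma adjusted p = 0.0860), 0.05 ± 0.12 (limma adjusted p = 0.912) and 0.40 ± 0.12 (limma adjusted p = 0.0660) at 6, 24 and 72 h. The 25 probe sets of Smad3 did not all go one way: 22, 20 and 19 were higher with PCB126 at the 3 times, with none called. At 6 h their median change was 0.22, against 0.53 for the gene value, and the mean of the probe sets gave 0.18 and the bright probe sets alone 0.08. At 24 h their median change was 0.25, against 0.05 for the gene value, with 0.16 from the mean and 0.43 from the bright probe sets (limma adjusted p = 0.0530). At 72 h their median change was 0.26, against 0.40 for the gene value, with 0.17 from the mean and 0.20 from the bright probe sets. The order of the 3 times in Smad3 therefore differed between these summaries, with 24 h lowest in the gene value and highest in the bright probe sets. Smad2 differed by 0.02, -0.17 and 0.12 (each ± 0.12), with all treated arrays below all vehicle arrays at 24 h only.

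Counting groups without overlap, the treated arrays were all above the vehicle arrays for 1 gene and all below for 3 at 6 h, beside 7.05% and 9.87% of all genes. At 24 h 1 gene was all above and 4 all below, beside 9.11% and 12.7% of all genes. At 72 h 2 were all above and 3 all below, beside 9.52% and 10.7% of all genes. Tgfb3, Ltbp1 and Tgfbr2 were below and not overlapping at each of the 3 times. The share of all genes that were so at every time was not computed, so this count has no background to compare with.

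**Figure D3:**
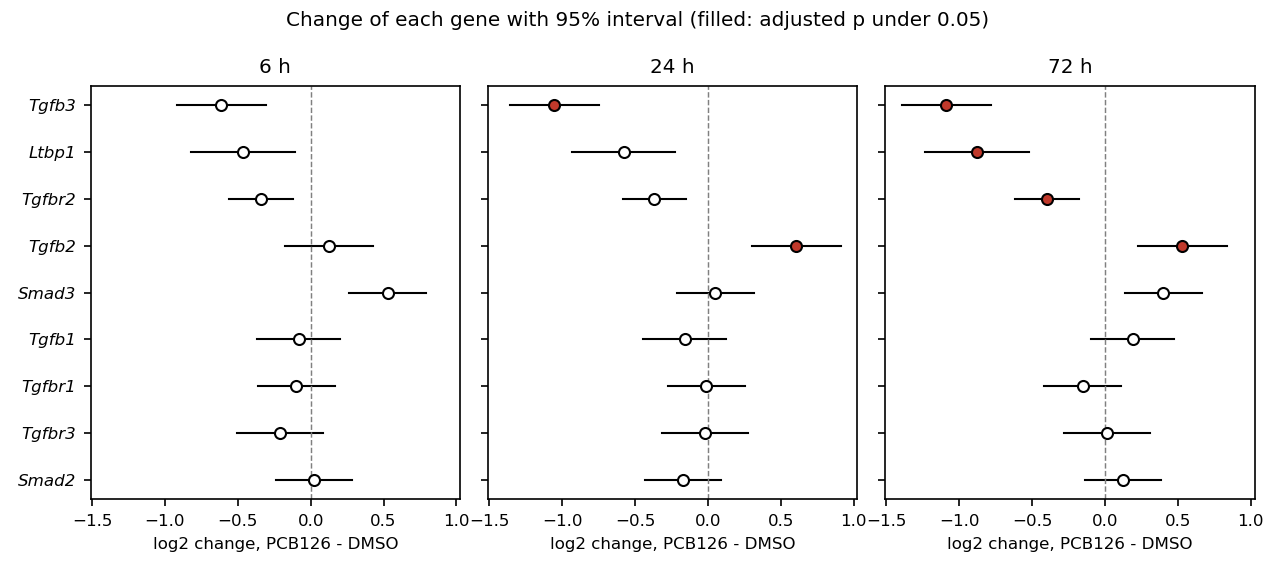
Change of each gene (log2, PCB126 minus DMSO) at 6, 24 and 72 h with its 95% interval from limma, filled where the adjusted p over all genes was under 0.05. Tgfb3 lies at -0.61, -1.05 and -1.09, Tgfb2 at 0.12, 0.61 and 0.53, and the intervals of Tgfb1, Tgfbr1, Tgfbr3 and Smad2 include 0 at each time.

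A difference in the PCB126 effect among 6, 24 and 72 h was tested with limma's moderated F-test. None of the 9 genes was called, against 0.565% of all genes, and 1 had an unadjusted p under 0.05, against 8.64% of all genes. That gene was Smad3 (limma adjusted p = 0.548). The adjusted p was 0.617 for Tgfb3 and 0.627 for Tgfb2. The effect on Tgfb3 at 24 h minus that at 6 h was -0.44 (95% interval -0.87 to -0.01, limma adjusted p = 0.703), so the calls at 24 and 72 h and the missed call at 6 h are not shown to differ. For Ltbp1 the effect at 72 h minus that at 6 h was -0.42 (95% interval -0.92 to 0.09, limma adjusted p = 0.648).

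Over time within a treatment, Ltbp1 was called and the other 8 genes were not, although Tgfb3 in DMSO cultures lay close to the threshold. In PCB126 cultures Ltbp1 fell by 1.77 ± 0.17 between 6 and 72 h (3.41-fold, limma adjusted p = 7.91e-06), the 1 call of 9, against 4.17% of all genes called lower. It fell by 1.06 ± 0.17 between 24 and 72 h (limma adjusted p = 0.00563), again 1 of 9, against 0.453% of all genes called lower. It differed by -0.71 between 6 and 24 h (limma adjusted p = 0.0745), where none of the 9 was called, against 0.624% of all genes. At that step 2 of the 9 had an unadjusted p under 0.05, against 9.68% of all genes. Without both wide-spread arrays the change between 6 and 72 h was -1.44 (adjusted p = 0.00355) and that between 24 and 72 h was -0.73 (adjusted p = 0.365). In DMSO cultures Ltbp1 fell by 1.35 ± 0.17 between 6 and 72 h (2.56-fold, limma adjusted p = 0.000296), the 1 call of 9, against 3.27% of all genes called lower. It differed by -0.75 between 24 and 72 h (limma adjusted p = 0.0722), where none of the 9 was called, against 0.389% of all genes. At that step 2 of the 9 had an unadjusted p under 0.05, against 11.4% of all genes. Between 6 and 24 h in DMSO cultures none of the 16988 genes (0%) was called by limma, and 3 of the 9 had an unadjusted p under 0.05, against 5.81% of all genes.

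The Tgfb3 value in PCB126 cultures was 8.23 ± 0.17, 8.16 ± 0.12 and 8.28 ± 0.11 (SD, n = 3) at 6, 24 and 72 h. In DMSO cultures it was 8.84 ± 0.29, 9.22 ± 0.10 and 9.37 ± 0.12. The difference between 72 and 6 h was 0.05 in PCB126 cultures (limma adjusted p = 0.898) and 0.53 in DMSO cultures (limma adjusted p = 0.0513). The DMSO difference was called under 8 of the 9 other settings run (0.47 to 0.68, limma adjusted p = 0.00742 to 0.0429), not in a fit of the compared groups alone (limma adjusted p = 0.154), and it was called without DMSO replicate 1 at 6 h (0.67, limma adjusted p = 0.0336). These time comparisons use the same arrays as the comparisons of PCB126 with DMSO.

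The genes whose pattern over the 18 arrays was most like that of a called gene were those with the smallest root mean square difference (log2) after centring each gene on its mean. For Tgfb3 these were Slc26a2, a sulfate transporter, at 0.137, RGD1561963 (now Dock10) at 0.187 and Cntfr, a subunit of the ciliary neurotrophic factor receptor, at 0.190. For Ltbp1 they were Sulf2, a sulfatase of heparan sulfate, at 0.207, Dlc1 at 0.223 and Samd5 at 0.237. None of these is in the pathway lists used here. For Tgfbr2 they were Snx33 at 0.0845, Atp2b1, a calcium pump, at 0.0869 and Ppargc1b, a transcriptional coactivator, at 0.0869. For Tgfb2 they were H2afx, a histone variant, at 0.139, Rangap1 at 0.140 and Pold2, a subunit of DNA polymerase delta, at 0.141. Slc26a2 differed between PCB126 and DMSO by -0.45, -1.28 and -1.03 at 6, 24 and 72 h, beside -0.61, -1.05 and -1.09 for Tgfb3. Since Slc26a2 was picked for its likeness to Tgfb3 on these same arrays, similar changes follow from that choice.

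The other genes of the pathway were taken from 5 lists with 103 of 109 genes measured, chosen with earlier results of these data known. The remaining listed genes were not analysed here. At 6 h 2 of the 103 were called, both higher (1.94%), at 24 h 5 higher and 7 lower (11.7%), and at 72 h 8 higher and 13 lower (20.4%), beside 0.494%, 4.84% and 7.44% of all genes. Without both wide-spread arrays, or with the compared groups alone, 12 were called at 72 h. The median change of the 103 was -0.05, -0.11 and -0.04, beside -0.01, -0.02 and 0.00 over all genes.

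**Figure D4:**
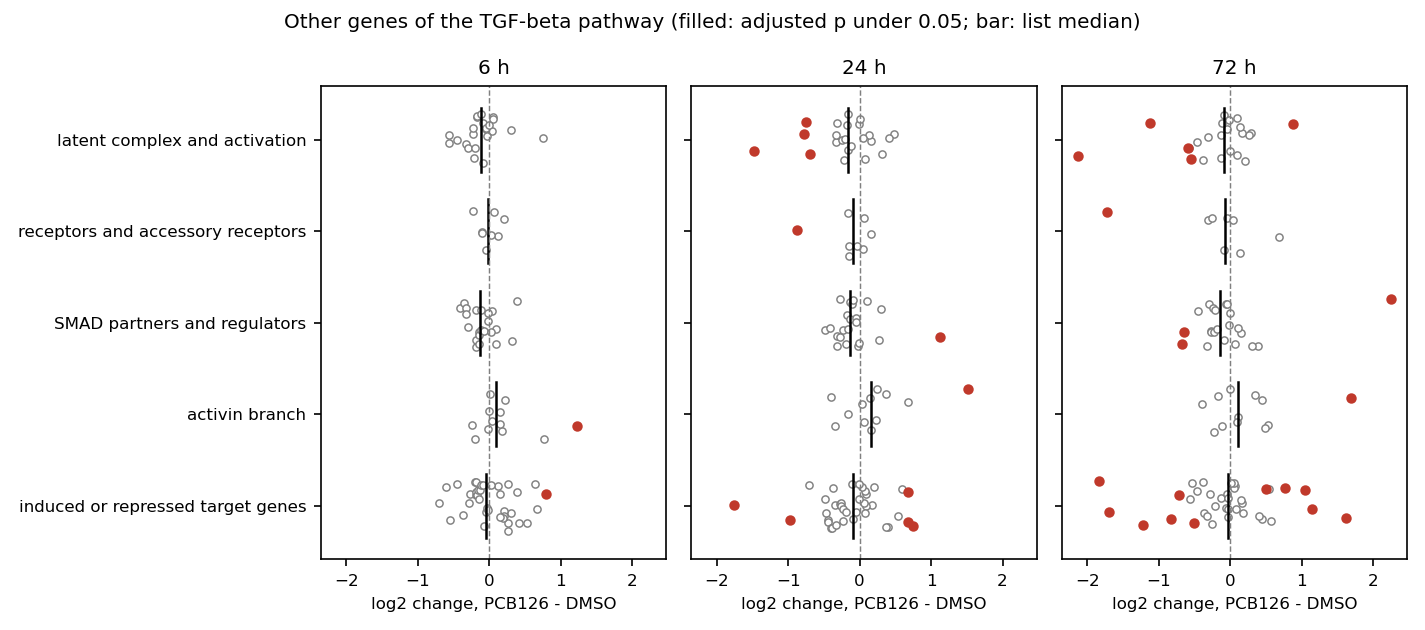
Change of each gene of the 5 pathway lists (log2, PCB126 minus DMSO) at 6, 24 and 72 h, filled where the adjusted p over all genes was under 0.05, with a bar at each list's median. At 72 h the called genes lie on both sides of 0, from Fmod at -2.13 to Nedd4l at 2.26.

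In the latent complex and its activation, none of 23 measured genes was called at 6 h, 4 were lower at 24 h, and 1 was higher and 4 were lower at 72 h. That made 0%, 17.4% and 21.7% of the list at the 3 times, beside 0.494%, 4.84% and 7.44% of all genes. Fmod, a small proteoglycan of the matrix that binds TGF-β, averaged 8.27 ± 0.28 with PCB126 and 9.74 ± 0.16 with DMSO at 24 h, and 7.24 ± 0.22 with PCB126 and 9.37 ± 0.12 with DMSO at 72 h (SD, n = 3). Fmod fell by 1.47 (limma adjusted p = 2.47e-05) and by 2.13 (limma adjusted p = 1.57e-07). Fbn1, the fibrillin of the microfibrils that carry latent binding proteins, fell by 0.78 at 24 h (limma adjusted p = 0.00834) and by 1.12 at 72 h (limma adjusted p = 0.000256). The Fbn1 call at 24 h was lost without PCB126 replicate 1 (-0.68, adjusted p = 0.0517). Itgb8, a subunit of an integrin that activates latent TGF-β, fell by 0.69 at 24 h and 0.54 at 72 h, and Mmp14, a membrane-bound metalloproteinase, by 0.75 and 0.58. Itgb5, another integrin subunit, was higher with PCB126 than with DMSO by 0.89 at 72 h (limma adjusted p = 0.000986). Its mean was lower at later times in both treatments, at 10.70, 9.81 and 9.52 with PCB126 and 10.39, 9.69 and 8.64 with DMSO. At 72 h the calls of Itgb8 and Mmp14 were lost without both wide-spread arrays (-0.34, adjusted p = 0.417, and -0.63, adjusted p = 0.159). The Itgb8 call was also lost without PCB126 replicate 2 or DMSO replicate 1, and the Mmp14 call without PCB126 replicate 2 or 3 or DMSO replicate 1 or 2, with adjusted p of 0.0597 to 0.0964.

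Among 8 measured accessory receptors, none was called at 6 h and Cav1 alone at 24 and 72 h. As 1 of 8 genes, Cav1 made 12.5% of the list at 24 and 72 h, beside 4.84% and 7.44% of all genes. Cav1 encodes caveolin-1, the coat protein of caveolae, through which TGF-β receptors can be internalised. Cav1 averaged 9.25 ± 0.06 with PCB126 and 10.13 ± 0.07 with DMSO at 24 h, and 7.86 ± 0.26 with PCB126 and 9.59 ± 0.17 with DMSO at 72 h (SD, n = 3). It fell by 0.87 (limma adjusted p = 0.000575) and by 1.72 (limma adjusted p = 2.77e-07).

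Among 22 SMAD partners and regulators, none was called at 6 h, 1 was higher at 24 h, and 1 was higher and 2 were lower at 72 h. Called genes were 0%, 4.55% and 13.6% of this list, beside 0.494%, 4.84% and 7.44% of all genes. The count at 24 h was thus near the share of all genes. Nedd4l, a ubiquitin ligase that marks activated SMADs for degradation, averaged 7.36 ± 0.24 with PCB126 and 6.24 ± 0.20 with DMSO at 24 h, and 8.04 ± 0.12 with PCB126 and 5.78 ± 0.07 with DMSO at 72 h (SD, n = 3). Nedd4l rose by 1.12 (limma adjusted p = 0.00282) and by 2.26 (limma adjusted p = 1.74e-06). Smad7, the inhibitory SMAD, fell by 0.67 at 72 h (limma adjusted p = 0.00403), and Wwp1, a related ubiquitin ligase, fell by 0.64 (limma adjusted p = 0.0279). Both calls were lost without the wide-spread arrays (Smad7 -0.43, adjusted p = 0.266, and Wwp1 -0.66, adjusted p = 0.117). The Wwp1 call was also lost without any 1 array of its groups except PCB126 replicate 1, with adjusted p of 0.0623 to 0.118.

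In the activin branch, Fst was the 1 gene of 12 called at each time. This is 8.33% of the list, beside 0.494%, 4.84% and 7.44% of all genes at 6, 24 and 72 h. The count at 72 h was near the share of all genes. Fst encodes follistatin, a secreted protein that binds and neutralises activin. Fst averaged 9.32 ± 0.09 with PCB126 and 8.09 ± 0.11 with DMSO at 6 h, 9.03 ± 0.08 with PCB126 and 7.51 ± 0.08 with DMSO at 24 h, and 8.64 ± 0.15 with PCB126 and 6.95 ± 0.22 with DMSO at 72 h (SD, n = 3). Fst rose by 1.23, 1.52 and 1.69 at 6, 24 and 72 h (limma adjusted p = 8.25e-05, 2.23e-06 and 2.43e-07).

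Among 38 genes that TGF-β is known to induce or repress, 1 was higher at 6 h, 3 were higher and 2 lower at 24 h, and 5 were higher and 6 lower at 72 h. These were 2.63%, 13.2% and 28.9% of the 38, beside 0.494%, 4.84% and 7.44% of all genes. Cyr61 (now Ccn1), a matricellular protein, rose by 0.80, 0.75 and 0.50 at the 3 times. Cdkn1a, the cell cycle inhibitor p21, rose by 0.68 at 24 h and 1.05 at 72 h, and Tagln, an actin-binding protein of contractile cells, rose by 1.62 at 72 h. Postn, a matricellular protein, fell by 1.76 and 1.70 at 24 and 72 h, and Edn1, the precursor of endothelin-1, by 0.97 and 1.83. Col3a1, a fibrillar collagen, fell by 1.22 at 72 h. The Cyr61 call at 72 h was lost without both wide-spread arrays (0.29, adjusted p = 0.434), and without PCB126 replicate 2, DMSO replicate 1 or DMSO replicate 3 (adjusted p of 0.0663 to 0.0728), whereas Cdkn1a, Tagln, Postn, Edn1 and Col3a1 were still called at 72 h without both. With the compared groups alone, the calls of Cyr61 at 6 h (adjusted p = 0.113) and Cdkn1a at 24 h (adjusted p = 0.0648) were lost, as were those of Fbn1 at 24 h (adjusted p = 0.0953) and, at 72 h, Smad7, Itgb8, Mmp14, Wwp1 and Cyr61 (adjusted p of 0.102 to 0.213).

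Markers of other cell types differed with treatment in part. For the counts of called markers, the shares of all genes called were 0.494%, 4.84% and 7.44% at 6, 24 and 72 h. The mean of the 5 endothelial markers was 5.08 to 5.28 with PCB126 and 5.31 to 5.57 with DMSO at 6 h, 5.03 to 5.21 with PCB126 and 5.33 to 5.49 with DMSO at 24 h, and 5.06 to 5.12 with PCB126 and 5.28 to 5.56 with DMSO at 72 h. Of these 5, only Tek was called, lower by 1.31 at 24 h and by 1.53 at 72 h. The median change of the 5 was -0.22, -0.12 and -0.08 at 6, 24 and 72 h, and a mean over few markers can follow 1 gene. The defining markers Pecam1 and Cdh5 averaged 4.97 and 4.48. The mean of the 7 hepatocyte markers was 4.68 to 4.71 with PCB126 and 4.73 to 4.89 with DMSO at 6 h, 4.67 to 4.81 with PCB126 and 4.80 to 5.02 with DMSO at 24 h, and 4.47 to 4.69 with PCB126 and 4.71 to 5.05 with DMSO at 72 h. These ranges did not overlap at 6 and 72 h, and Cyp2e1 alone was called, lower at 24 and 72 h. The mean of the 7 stellate cell and myofibroblast markers was 6.03 to 6.09 with PCB126 and 6.07 to 6.13 with DMSO at 6 h, 5.94 to 5.99 with PCB126 and 6.02 to 6.21 with DMSO at 24 h, and 5.91 to 6.03 with PCB126 and 5.81 to 6.04 with DMSO at 72 h. Only the ranges at 24 h did not overlap, and none of the 7 was called at any time. The mean of the 6 leukocyte and Kupffer cell markers was 4.13 to 4.45 with PCB126 and 4.01 to 4.11 with DMSO at 72 h. The ranges overlapped at 6 and 24 h and did not at 72 h, with PCB126 higher, and none of the 6 was called at any time.

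The markers of the cells' own type changed as well. Of the 10 liver epithelial progenitor markers, 0 were called higher and 2 lower at 6 h, 1 higher and 3 lower at 24 h, and 2 higher and 2 lower at 72 h. This is 20%, 40% and 40% of the list, beside 0.494%, 4.84% and 7.44% of all genes. Krt19, a keratin of bile duct and progenitor cells, fell by 1.01, 0.95 and 1.37 at the 3 times, and Met, the receptor for hepatocyte growth factor, fell by 0.76, 1.08 and 1.21. Vim, the mesenchymal intermediate filament vimentin, rose by 0.67 at 24 h and 1.15 at 72 h. It is also in the list of genes that TGF-β is known to induce or repress, so its calls are counted in both lists. The keratin Krt18 fell by 0.69 at 24 h, and its partner Krt8 rose by 1.08 at 72 h. These 5 markers were named after their values were seen. The mean of the 10 markers was 6.44 to 6.66 with PCB126 and 6.62 to 6.66 with DMSO at 6 h, 6.34 to 6.46 with PCB126 and 6.48 to 6.56 with DMSO at 24 h, and 6.19 to 6.49 with PCB126 and 6.27 to 6.53 with DMSO at 72 h, without overlap at 24 h only. The part of any of these marker lists in the changes of the TGF-β genes was not tested.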

How the data were processed

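Gene expression was measured on Affymetrix rat exon arrays, 1 per sample, in 18 samples. The values deposited are on the log2 scale, and the submitters' processing notes name RMA and Affymetrix Power Tools 1.12.0. RMA subtracts background, equalises arrays and combines the probes of a probe set, so differences at the dim end and near saturation tend to be understated. A genome build for the array is not given in the sources. Precision is limited by having 3 arrays per group.

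Of 1044112 probe sets, 223110 had 1 symbol in the platform annotation, 3523 several and 817479 none, and the last 2 kinds were left out. The median over a gene's probe sets gave 16988 gene values per array. Symbols of the platform are partly old and were updated through RefSeq's GRCr8 gene table. All 18 arrays entered 1 limma fit (limma 3.58.1, R 4.3.3, matrixStats 1.5.0, and for reading files the data.table package, version 1.17.8), which had a mean for each group, 12 residual and 3.89 prior degrees of freedom and no intensity trend. P-values were adjusted over all genes of a contrast (Benjamini-Hochberg). The 9 members, the lists of pathway genes and markers, and the tests were chosen with earlier results of these data known. The rule for other genes named the called genes of each list with the largest changes, up to 4 at each time, and 3 genes most like each called member. Of the markers, those that define a cell type or lay above the median gene are named. Called markers are named as well, a choice made after their values were seen. The fits were checked on data simulated with known differences.

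Replicate numbers are shared by the groups. Deviations of same-numbered samples of 1 time correlated at 0.00405 to 0.170 (median 0.0750), with 2 of 9 pairs over 0.1. Those of other-numbered samples of 1 time correlated at -0.154 to 0.0689 (median -0.0542), with 0 of 18 over 0.1. Same-numbered samples of 1 time were thus somewhat more alike, and the labels do not say if the numbers pair them. Over all times, 6 of 45 same-numbered pairs (median 0.0314) and 9 of 90 other-numbered pairs (median -0.0162) were over 0.1. Deviations were taken from the mean of each group, so higher correlations of same-numbered samples go with lower ones of the others. The main fit and the fits with an array left out take no pairing into account, and the replicate block does. Alternatives were the replicate block, the mean of probe sets, bright probe sets (above the median probe set level of 4.03), genes with at least 4 probe sets, quantile normalisation, centring on the gene median, an intensity trend, array quality weights, the compared groups alone, and each array omitted singly. One more setting, chosen after seeing the data, was a fit without replicates 1 and 2 of PCB126 at 72 h, in which the lone array of that group is assumed to vary like the other groups.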

Additional observations from a re-analysis of the deposited data

How the results depend on the processing

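Tgfb3 was called lower at 24 and 72 h under every alternative run. With the replicate block, no call of the 9 genes changed between PCB126 and DMSO (adjusted p at 72 h 0.000133 for Tgfb3, 0.00365 for Ltbp1, 0.0317 for Tgfbr2 and 0.00916 for Tgfb2), and DMSO at 72 against 6 h had 2 calls, Ltbp1 and Tgfb3 (adjusted p = 0.0394), against 1. Fits of the compared groups alone have fewer samples. Between PCB126 and DMSO at 24 and 72 h they called Tgfb3 alone of the 9 (limma adjusted p = 0.00972 and 0.00926). So 1 of the 9 was called at 24 h against 2, 1 at 72 h against 4, and 0 for PCB126 at 72 against 24 h against 1. Ltbp1 kept its calls at 72 against 6 h in both treatments. Between PCB126 and DMSO, Ltbp1 and Tgfbr2 then had limma adjusted p = 0.0835 and 0.255 at 72 h, and Tgfb2 0.140 and 0.163 at 24 and 72 h. That fit called 11, 453 and 416 of all genes at 6, 24 and 72 h, against 84, 823 and 1264, and 1 pathway gene at 6 h and 12 at 72 h. Without both wide-spread arrays, 1 of the 9 was called at 72 h, 0 for PCB126 at 72 against 24 h, 12 pathway genes and 523 of all genes at 72 h.

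At 6 h, 1 of the 9 was called with the mean of probe sets, quantile normalisation and the intensity trend (Tgfb3, adjusted p = 0.0111, 0.0404 and 0.0373), and with array weights (Smad3, adjusted p = 0.0208). At 24 h, 4 of the 9 were called with at least 4 probe sets, the trend and array weights. Pathway genes called were 20 at 24 h with the mean of probe sets, and 4 at 6 h with the trend and array weights. DMSO at 72 against 6 h had 2 calls, Ltbp1 and Tgfb3, with all these settings and with bright probe sets and centring, and DMSO at 72 against 24 h had 1 with the mean, at least 4 probe sets, the trend and weights. PCB126 at 24 against 6 h had 1 call with the mean, the trend and weights, and PCB126 at 72 against 6 h had 2 with weights.

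Leaving out 1 array gave 0 to 1, 1 to 2 and 2 to 3 calls of the 9 at 6, 24 and 72 h, 1 to 2 for DMSO at 72 against 6 h (Tgfb3 the second, without DMSO replicate 1 at 6 h) and 0 to 1 for DMSO at 72 against 24 h. Tgfb3 at 6 h was called without DMSO replicate 3 (adjusted p = 0.0399), and Ltbp1 at 24 h without DMSO replicate 3 (adjusted p = 0.0417). The counts of all genes called fell to 32 to 44 at 6 h (84 with every array), 449 to 623 at 24 h (823) and 885 to 1152 at 72 h (1264), so the shares of all genes called given beside the 9 genes hold only with every array. For DMSO at 72 against 6 h the count was 161 to 543 (703) and at 72 against 24 h 13 to 61 (66). For PCB126 it was 33 to 58 at 24 against 6 h (106), 533 to 1129 at 72 against 6 h (962) and 46 to 115 at 72 against 24 h (109).

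The signs that turned belonged to changes that were never called. With the mean of probe sets these were Tgfb1 at 6 h (0.0234), Tgfbr1 at 24 h (0.0432) and the Tgfb3 effect at 72 minus 24 h (0.0865). With bright probe sets they were the Smad3 effects at 24 minus 6 h (0.35), 72 minus 24 h (-0.23) and 72 minus 6 h (0.12). At 24 h Tgfbr1 and Tgfbr3 turned with quantile normalisation (0.0278 and 0.0296) and centring (0.0303 and 0.0243). With array weights Smad2 turned at 6 h (-0.0121) and 72 h (-0.00826), Tgfbr1 at 24 h (0.00386) and Tgfb3 in PCB126 at 72 against 6 h (-0.0106). Without both wide-spread arrays Smad2 at 72 h (-0.0438) and the same Tgfb3 contrast (-0.000848) turned. With single arrays left out, signs turned in some fits, and the ranges given next cover all such fits, turned or not. At 6 h these ranges were -0.18 to 0.0549 for Tgfb1 and -0.0326 to 0.0778 for Smad2. At 24 h they were -0.0828 to 0.0430 for Tgfbr1, -0.0519 to 0.00102 for Tgfbr3 and -0.0240 to 0.12 for Smad3. Tgfbr3 at 72 h ranged from -0.0465 to 0.0986. Tgfb3 in PCB126 ranged from -0.13 to 0.0363 at 24 against 6 h and from -0.0102 to 0.15 at 72 against 6 h. In the effect at 72 minus 24 h, Tgfb2 ranged from -0.22 to 0.0367 and Tgfb3 from -0.10 to 0.0305. The cause was not tested.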
